A study of Mus musculus with 8 samples.

Results

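The genes described here are 10 regulators of the step at which a resting T cell enters the cell cycle, measured by RNA sequencing in mouse regulatory T (Treg) cells. They are Myc, the cyclins Ccnd2, Ccnd3 and Ccne1, the kinases Cdk4 and Cdk6, the transcription factor E2f1 and the cyclin-dependent kinase (CDK) inhibitors Cdkn1a, Cdkn1b and Cdkn2c. They were taken by symbol from the 52459 genes listed, and all 10 were among the 15419 genes tested, whose mean was at least 10 normalized counts. The study asked what Treg cells lose without STIM1 and STIM2, the calcium sensors of the endoplasmic reticulum that open the store-operated channels of the plasma membrane. WT cells were CD25 high and negative for YFPcre, and Stim1/2-deficient cells, labelled DKO, were positive for it. Both came from spleen and lymph nodes of C57BL/6 female mice heterozygous for Foxp3-YFPcre and carrying floxed Stim1 and Stim2, with several mice pooled per sample, and no age was given for the sorted animals. The transgene is driven by the Foxp3 promoter on the X chromosome, so that these females hold both kinds of Treg cells, and genotype cannot be told apart from expression of YFPcre. Cells were either left unstimulated or kept for 16 h with plate-bound anti-CD3/CD28 at 1 µg/ml. Each of the 4 groups had 2 libraries.

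Mitogens raise MYC and the D-type cyclins in T cells. D-type cyclins bind CDK4 and CDK6 and start to inactivate the retinoblastoma protein, which releases E2F factors such as E2F1. E2F factors then drive cyclin E and the genes of DNA replication. The inhibitor p18, encoded by Cdkn2c, blocks CDK4 and CDK6, whereas p27 (Cdkn1b) and p21 (Cdkn1a) act on the cyclin E and cyclin A kinases, and p21 is a main target of p53. MYC binds DNA with its partner MAX at E-box sequences, and the MXD proteins and MNT compete with it for MAX.

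The libraries held 11851853 to 16306540 reads on genes. The deposited values, here called normalized counts, had been scaled by the authors with 1 factor a library, so that 1 read is worth 0.759 to 1.48 of them. Stim1 and Stim2 were not lower in the libraries labelled DKO beyond the spread of the libraries. At rest, Stim1 stood at 1139 and 1377 normalized counts in WT and at 1538 and 1868 in the labelled libraries. The 4 tests of both genes gave limma adjusted p-values of 0.236 to 0.827. These values are per gene and do not show which exons the reads came from. The study reports loss of both transcripts by RT-PCR in Treg cells of male mice. It also reports that YFPcre-positive Treg cells of heterozygous females lacked store-operated calcium entry. All 6 Treg cell markers (Cd4, Cd3e, Foxp3, Il2ra, Ctla4 and Ikzf2) were expressed in every library, with a summed level of 85600 to 91900 normalized counts in unstimulated WT, 40110 to 47800 in unstimulated labelled DKO, 94710 to 112700 in stimulated WT and 67930 to 85820 in stimulated labelled DKO libraries. The sum of 10 macrophage and other myeloid markers, among them Spic, Vcam1 and Mrc1, was 196.5 to 211.5 in unstimulated WT libraries, 1302 and 8879 in the unstimulated labelled DKO libraries, and 192.9 to 250.2 after stimulation. Their level was far the highest in unstimulated labelled DKO replicate 1, all 10 were higher in both of those libraries than in either WT library, and C1qa and C1qc were at 0 in unstimulated WT cells. B cell markers summed to 5599 to 6598 in unstimulated WT and 3729 to 13130 in unstimulated labelled DKO libraries. CD8 T and NK cell markers summed to 248.2 to 298.9 and 265.8 to 759.2 in the same groups, and erythroid markers to 25.9 to 63.52 and 76.13 to 177.2. After stimulation, B cell markers summed to 4742 to 4916 in WT and 2343 to 4568 in labelled DKO libraries. CD8 T and NK cell markers then summed to 202 to 370.2 and 244.8 to 802. Erythroid markers stood at 121.6 to 180 and 82.59 to 84.43. All B cell markers but Ighm were higher in replicate 1 than in replicate 2 of both stimulated groups. Ighm was so in labelled DKO only. Ms4a1 had 263.4 and 19 normalized counts in WT and 312 and 61.6 in labelled DKO. The part of other cells in the differences below was not tested, and in these bulk samples fewer cells of a type cannot be told apart from less RNA per cell. Unstimulated and stimulated libraries were sequenced on different lanes, and stimulation cannot be told apart from lane. A gene was called at a limma adjusted p under 0.05 (Benjamini-Hochberg over the 15419 genes) and a change of more than 1.5-fold.

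Per kilobase of exon, Cdk6 and Ccnd2 were the most abundant of the 10 transcripts and Ccne1 and Cdkn2c the least in unstimulated WT cells. On this scale, the 2 unstimulated WT libraries had 2172 and 2302 normalized counts per kilobase of Cdk6 and 1235 and 1349 of Ccnd2. They were followed by Cdkn1b (551.4 and 595.1), then by Myc (396.3 and 415.1) and Cdkn1a (376.8 and 446.1), whose ranges overlapped. Cdk4 (169.6 and 216.9) and Ccnd3 (183.3 and 197.2) also overlapped, as did E2f1 (65.55 and 117.7) and Cdkn2c (77.54 and 83.16), and Ccne1 (31.63 and 48.65) was below all others. Among the D-type cyclins, Ccnd2 was thus far above Ccnd3 and, among their kinases, Cdk6 far above Cdk4. In unstimulated labelled DKO libraries, Cdk6 (874.3 and 1038) and Ccnd2 (814.5 and 1110) overlapped in level per kilobase, and Ccnd3 (419.9 and 616.6) stood above Cdk4 (73.58 and 137.5). After stimulation, Myc reached 1721 and 1994 normalized counts per kilobase in WT and 1733 and 1739 in labelled DKO libraries, behind Cdk6 and Ccnd2 in both genotypes.

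Promoter windows of Cdk4 and Cdk6 are shown because both kinases responded to stimulation together with Myc in the libraries labelled DKO. A further reason is that they alone, among the members with a window, held the E-box CACGTG, a palindrome that reads alike on both strands. RefSeq promoter windows of GRCm38.p6 were at hand for 8 of the 10 genes, in 11 sequences, and the 250 bases before each annotated start were searched. Myc and Ccnd2 had no entry. Cdk4 has 4 E-boxes, 172, 118, 98 and 11 bases before its start, each given by the first base of the motif. Cdk6 has 1, 220 bases before an annotated start that lies inside its gene, which begins at 3341004. Of all 32851 such windows, 6.02% held at least 1 E-box and 7 of them (0.0213%) held 4 or more. E2F motifs (TTTCCCGC, TTTCGCGC, TTTGCCGC or TTTGGCGC, on either strand) were in 1.86% of windows and in 0 of the members' windows, which says only that these letters are not there. The only E2f1 window, 154569427 to 154569676 on the minus strand, also lies inside its gene, which extends to 154569892. The bases upstream of the whole gene were thus not searched for E2f1 or Cdk6. E-boxes are in capitals, and both sequences are on the plus strand, at chr10:127063285-127063534 for Cdk4 and chr5:3343643-3343892 for Cdk6.
Cdk4: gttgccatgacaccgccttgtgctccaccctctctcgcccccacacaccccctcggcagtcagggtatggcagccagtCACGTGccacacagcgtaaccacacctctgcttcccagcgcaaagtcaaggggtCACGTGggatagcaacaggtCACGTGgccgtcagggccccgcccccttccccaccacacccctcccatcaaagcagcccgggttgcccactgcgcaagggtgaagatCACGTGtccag
Cdk6: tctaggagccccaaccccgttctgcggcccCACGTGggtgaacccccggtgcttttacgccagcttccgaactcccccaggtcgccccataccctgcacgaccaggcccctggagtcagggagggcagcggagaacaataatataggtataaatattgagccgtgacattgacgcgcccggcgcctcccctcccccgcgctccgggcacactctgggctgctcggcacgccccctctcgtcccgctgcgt

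**Figure D1:**
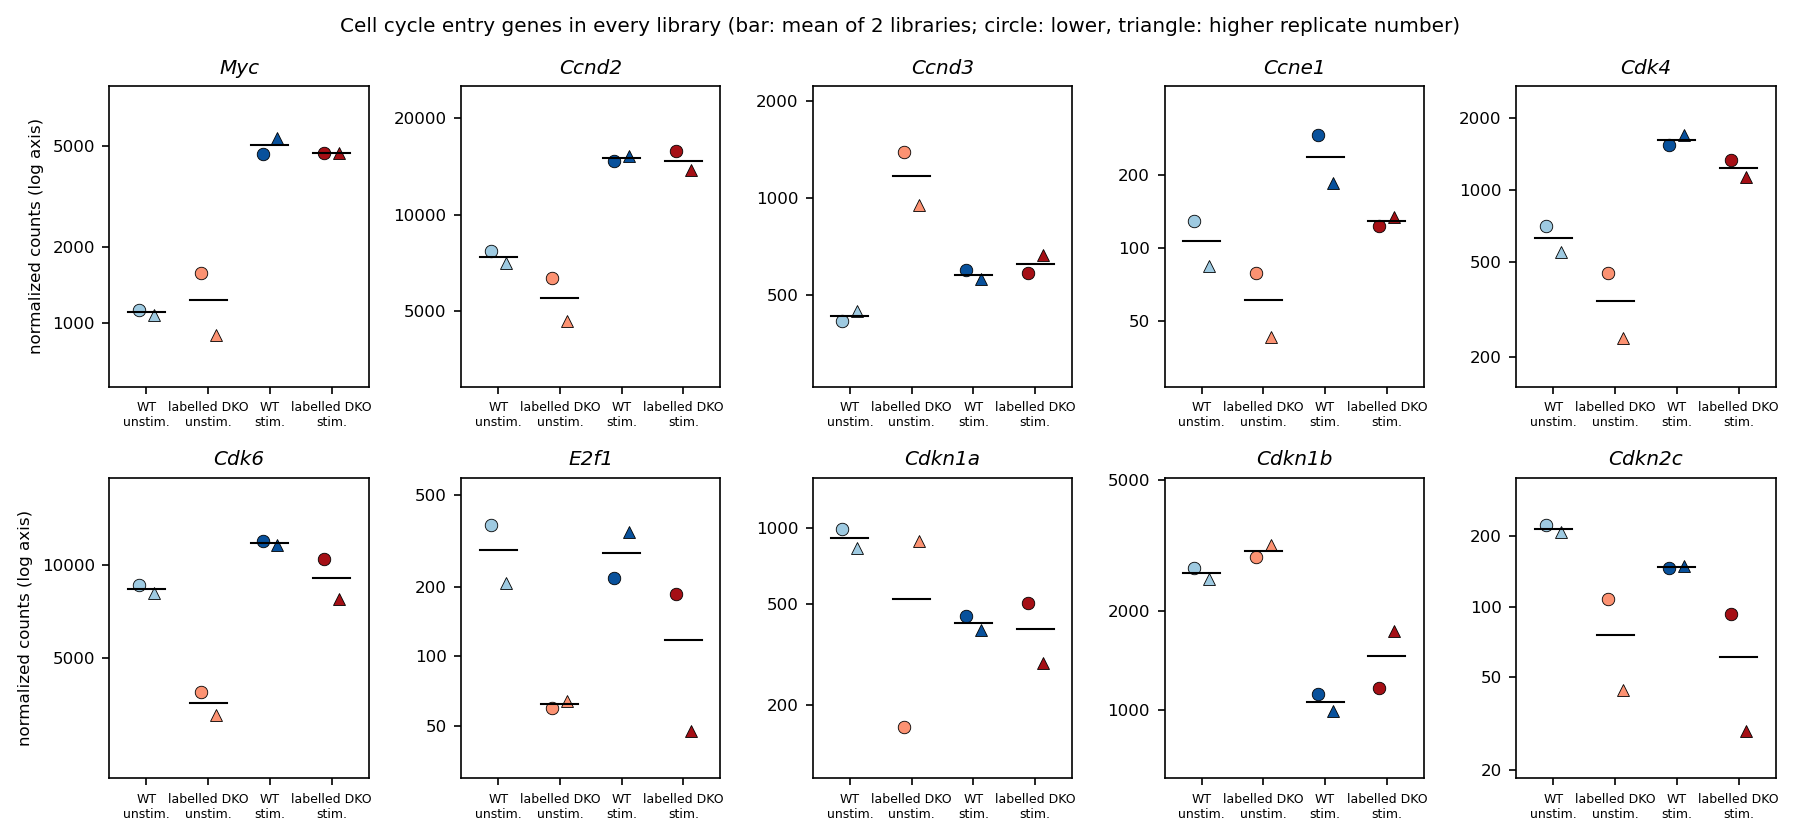
Normalized counts of the 10 genes in each of the 8 libraries (log axis; bar, mean of the 2 libraries of a group; circle and triangle, the lower and the higher replicate number). Myc, Ccnd2 and Cdk4 were higher in all stimulated than in all unstimulated libraries, Cdk6 was lowest and Ccnd3 highest in the 2 unstimulated labelled DKO libraries, and Cdkn1a differed 5.39-fold between those 2 libraries.

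Without stimulation, Cdk6 was lower and Ccnd3 higher in the libraries labelled DKO than in WT, and these were the members that passed the test. Thus 1 of the 10 genes was called lower and 1 higher, against 3.35% and 1.38% of all genes tested. The groups did not overlap, with both labelled libraries lower, for 6 members (27.1% of all genes) and, with both higher, for 2 members (26.5% of all genes). The median log2 fold change of the 10 genes was -0.88, against -0.01 for all genes tested, and 5 members passed an unadjusted p under 0.05 with more than 1.5-fold, as did 19.7% of all genes. Both calls were lost without WT replicate 3 (adjusted p = 0.189 for each), when 8 genes in all were called lower and 0 higher, and without WT replicate 4 (0.0798 and 0.0814), when 16 were called lower and 7 higher, whereas Cdk6 and Ccnd3 remained called without either labelled library.

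Myc (chromosome 15, 61985341 to 61990361 on GRCm38.p6) was not called between the genotypes in resting cells. Its normalized counts were 1128 and 1077 in WT and 1573 and 892 in labelled DKO libraries. The 2 labelled libraries lay on either side of both WT libraries. The log2 fold change of Myc was 0.10 (95% interval -0.44 to 0.65, limma adjusted p = 0.85), and it was -0.30 without labelled replicate 1, the library with the most myeloid transcripts.

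Ccnd3 (chromosome 17, 47505051 to 47599689), the D-type cyclin that lymphocytes also use, had 413 and 445 normalized counts in WT libraries against 1390.4 and 947 in those labelled DKO. The groups were far apart, and both labelled libraries held more than all 6 other libraries. Ccnd3 rose 2.67-fold (log2 fold change 1.42, standard error 0.23, limma adjusted p = 0.0125). The higher value was in labelled replicate 1, and without that library the log2 fold change was 1.14 (adjusted p = 0.0185). Ccnd3 shares 353 exon bases, 15.7% of its exons, with Bysl on the other strand, and whether counting used the strand is not given in the sources used here. Bysl itself had 252.6 and 294.6 normalized counts in WT and 339.2 and 444.6 in labelled DKO libraries, and the part of the overlap in the Ccnd3 difference (429 ± 22.1 in WT against 1169 ± 314, SD, n = 2) was not tested.

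Ccnd2 (chromosome 6, 127125162 to 127152188), the more abundant D-type cyclin among the members, had the opposite sign and did not pass the test. It stood at 7689 and 7040.3 normalized counts in WT libraries and 6330.3 and 4644 in those labelled DKO. The genotypes did not overlap, with WT the higher. The log2 fold change of Ccnd2 was -0.44 (95% interval -0.86 to -0.02, limma adjusted p = 0.21), and it was called without labelled replicate 1 (-0.66, adjusted p = 0.0367).

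Cdk6 (chromosome 5, 3341004 to 3531008) had 8599 and 8114 normalized counts in WT libraries and 3879 and 3265 in those labelled DKO. No other group reached so low a level of this kinase in either library. Cdk6 fell by 1.23 on the log2 scale, a level 2.35-fold lower (standard error 0.19, limma adjusted p = 0.0111), and the 10 alternatives other than leaving out a library all kept the call. Cdk4 (chromosome 10, 127063535 to 127067288), which shares its cyclins and substrate with Cdk6, had 705 and 551 normalized counts in WT and 447 and 239 in labelled DKO libraries. Its groups were also apart, but the labelled libraries differed 1.87-fold from each other. Its log2 fold change of -0.93 (95% interval -1.57 to -0.29) missed the threshold (limma adjusted p = 0.0942) and passed it without labelled replicate 1 (-1.38, adjusted p = 0.0114). Cdk4 shares 604 exon bases (18.6%) with Tspan31 on the other strand, which had 94.4 to 176 normalized counts in the unstimulated libraries.

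Of the genes downstream of the D-type cyclin kinases, E2f1 (chromosome 2, 154559400 to 154569892) had the largest fold of the 10 members. Its normalized counts were 371 and 207 in WT and 59.8 and 64.1 in labelled DKO libraries. The labelled libraries were close to each other, and the WT libraries were farther apart but well above them. The log2 fold change of E2f1 was -2.15 (95% interval -3.39 to -0.90), with a limma adjusted p of 0.0594. Over all alternatives this p ranged from 7.13e-05 to 0.468, and E2f1 was called by DESeq2 on recovered reads and by limma on the 4 unstimulated libraries alone. Leaving out either stimulated labelled library also brought it under the threshold (adjusted p = 0.014 and 0.013), which changed only the shared estimate of the spread. Ccne1 (chromosome 7, 38097984 to 38107490), which encodes cyclin E1, had 129.5 and 84.2 normalized counts in WT against 78.6 and 42.7. Its groups were apart by a narrow margin and its log2 fold change was -0.84 (95% interval -1.72 to 0.05, limma adjusted p = 0.25).

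The 3 inhibitors did not move together, and none was called. Cdkn2c (chromosome 4, 109660876 to 109666756) had 223 and 208 normalized counts in WT libraries and 108 and 44.1 in those labelled DKO. Its groups were apart, with labelled replicate 2 the lower of its pair, and the log2 fold change was -1.63 (95% interval -2.84 to -0.42, limma adjusted p = 0.115). DESeq2 on the reads of these 4 libraries called it (adjusted p = 0.0449), and no other alternative did. Cdkn1b (chromosome 6, 134920401 to 134925525), the most abundant inhibitor, had 2709 and 2510 normalized counts in WT and 2927 and 3185 in labelled DKO libraries. WT was the lower in each pairing of libraries, but by little, with a log2 fold change of 0.23 (95% interval -0.24 to 0.70, limma adjusted p = 0.575).

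Cdkn1a (chromosome 17, 29090979 to 29100722) had 992 and 838 normalized counts in WT libraries, but 165 in labelled replicate 1 and 887 in labelled replicate 2. The 2 labelled libraries thus differed 5.39-fold, and replicate 2 lay within the range of WT. The log2 fold change was -1.25 (95% interval -2.59 to 0.08, limma adjusted p = 0.255). It rested on 1 library, since Cdkn1a was -0.04 without labelled replicate 1 and -2.46 without labelled replicate 2 (adjusted p = 0.00521 in the latter). Replicate 1 also held 8879 normalized counts of the 10 myeloid markers, against 1302 in replicate 2.

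**Figure D2:**
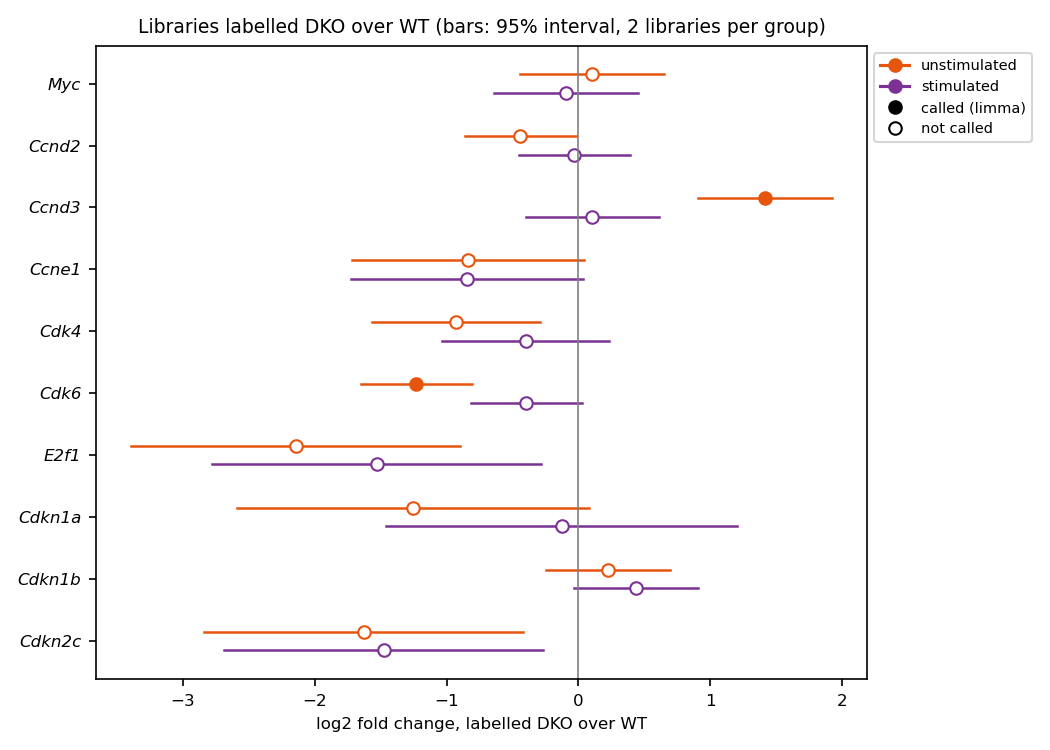
Log2 fold change of the 10 genes in libraries labelled DKO over WT (x axis), in unstimulated and in stimulated cells (bars, 95% interval of limma, 2 libraries per group; filled, called). Cdk6 and Ccnd3 were called in unstimulated cells and no gene in stimulated cells, and the intervals of E2f1 and Cdkn2c were below 0 in both states although neither passed the adjusted test.

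Genes of DNA replication and mitosis were called lower in unstimulated cells labelled DKO. The lists were chosen with earlier results of these data known, so their counts describe these data only. Of 16 E2F target genes of DNA replication, 11 were called lower and none higher, against 3.35% and 1.38% of all genes tested. The median log2 fold change of the 16 was -1.82, and all were below 0. Mcm6, Mcm5 and Mcm3, subunits of the replicative helicase, fell by 1.85, 2.14 and 1.95 on the log2 scale (limma adjusted p = 0.00416, 0.0057 and 0.00966). Mcm6 had 4249 and 3389 normalized counts in WT and 1078 and 1026 in labelled DKO libraries, with both pairs close together. All 6 mitotic markers were called lower (median -2.56), among them Top2a, Birc5 and Bub1 at -2.55, -2.74 and -2.77 (limma adjusted p = 0.0142 to 0.0201). Among 11 other cyclins and CDKs, 4 were called lower and none higher (median -0.76), with Ccnb2, Ccna2 and Cdk1, the mitotic cyclins and their kinase, at -2.67, -2.76 and -3.42. Of 12 other RB and E2F family genes, 5 were called lower and none higher (median -0.55). The repressors E2f7 and E2f8, which are E2F targets themselves, fell by 2.46 and 2.88, and the activator E2f2 by 1.31 (limma adjusted p = 0.00593, 0.00841 and 0.0291). Without labelled replicate 1, these 4 lists had 9, 6, 4 and 4 genes called lower, without labelled replicate 2 they had 9, 5, 3 and 4, and without WT replicate 3 they had 0 in each. Without WT replicate 4 of the unstimulated group the E2F target genes had 2 and the other lists 0, and without WT replicate 1 or 2 of the stimulated group, which enter only the estimate of the spread, the E2F target genes had 6 and 3, the mitotic markers 3 and 2, the cyclins and CDKs 3 and 1, and the RB and E2F family 2 and 2.

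The lists around MYC, p53 and the inhibitors had 0 to 2 limma calls each between the genotypes in resting cells. For comparison, lower calls made up 3.35% and higher calls 1.38% of the 15419 genes. In lists this short even 1 call lies above these shares, and whether there was an excess was not tested. Of 9 tested genes of the MYC network limma called 0 (median -0.19), with 1 lower and 1 higher at an unadjusted p under 0.05 and 0 called by edgeR or DESeq2. The median of this list was -0.05 without labelled replicate 1 and -0.42 without labelled replicate 2. Mga, a repressor that binds MAX, had the smallest p (log2 fold change 0.54, limma adjusted p = 0.0879). Among 12 MYC target genes 1 was called lower (median -0.53), Odc1, the rate-limiting enzyme of polyamine synthesis, at -1.31 (limma adjusted p = 0.0234). Odc1 was no longer called without either unstimulated or either stimulated WT library. The p53 target genes had 2 of 10 called lower (median -0.71), Trp53inp1 at -0.99 and Ccng1 at -0.90 (limma adjusted p = 0.0156 and 0.048), and 0 were left without either unstimulated WT library and 1 without stimulated WT replicate 2. Of 6 genes of the turnover of p27, 1 was called lower (median -0.13), Cks1b, a cofactor of the ligase that marks p27 for degradation, at -2.10 (limma adjusted p = 0.0088), and it was lost without either unstimulated WT library. Of the 2 other CDK inhibitors tested, 0 were called by limma, edgeR or DESeq2 and 0 passed an unadjusted p under 0.05, and Cdkn2d was at 0.45 (limma adjusted p = 0.378). Among 10 antiproliferative genes 1 was called higher (median 0.13), Btg1, at 0.86 (limma adjusted p = 0.0251), with 9553 and 9539.7 normalized counts in WT and 18254 and 16360.5 in labelled DKO libraries. Btg1 was lost without any 1 of the 4 WT libraries as the only call of its list, which then had 0 higher. The median of the list rested on the labelled libraries, at 0.40 without replicate 1 and at -0.26 without replicate 2, when 2 of its genes were called lower and 2 higher.

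**Figure D3:**
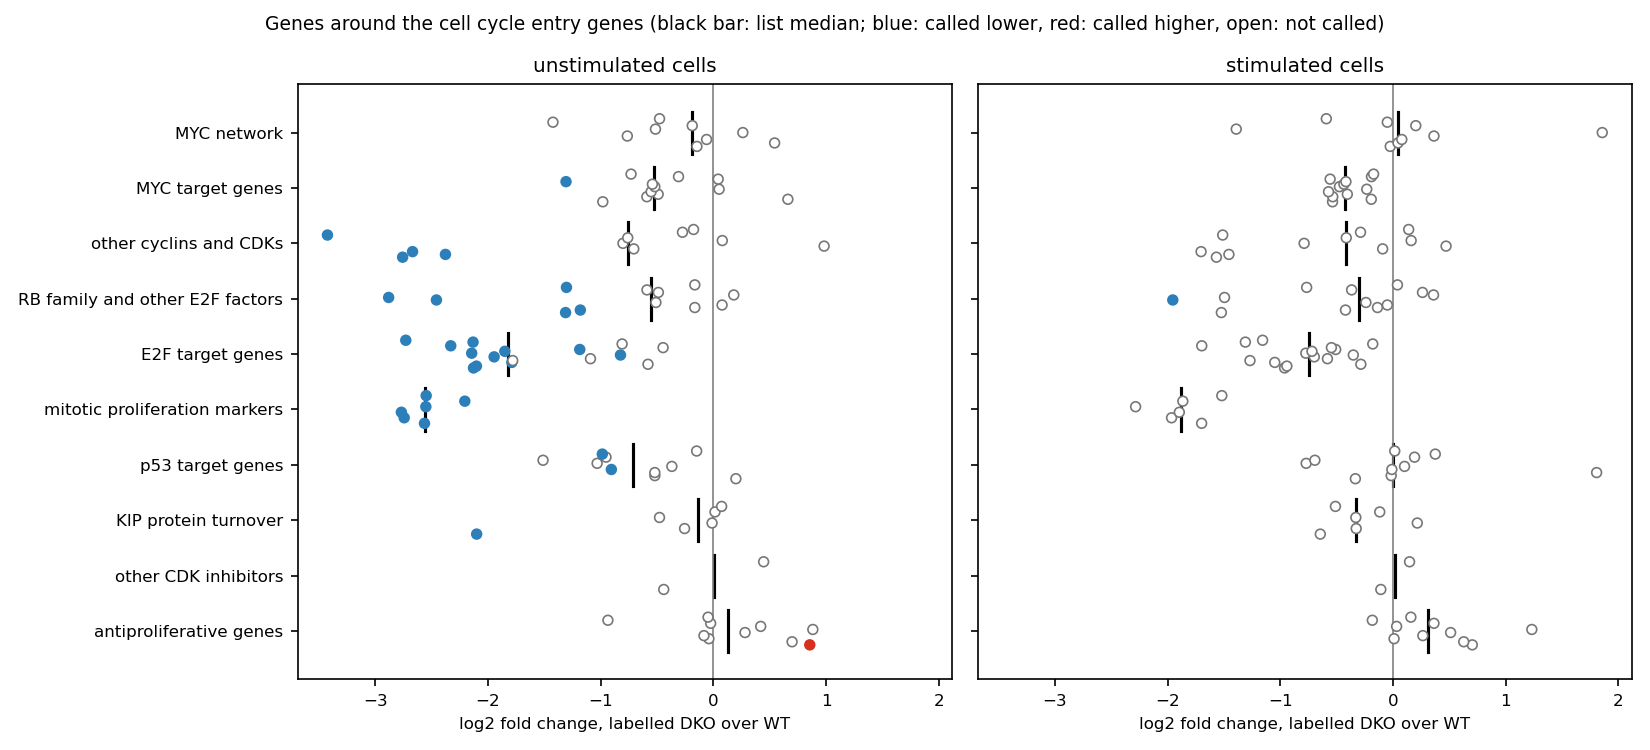
Log2 fold change in libraries labelled DKO over WT (x axis) of each tested gene of 10 lists, in unstimulated and in stimulated cells (black bar, list median). In unstimulated cells 11 of 16 E2F target genes and 6 of 6 mitotic markers were called lower, and in stimulated cells E2f7 was the only gene of these lists that limma called.

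After 16 h of stimulation, none of the 10 genes was called between the genotypes by limma, edgeR or DESeq2 on all libraries, and 2 passed an unadjusted p under 0.05 with more than 1.5-fold with limma, as did 12.6% of all genes. In all, limma called 0.11% of the genes tested lower and 0.162% higher. This background rested on the tool and on single libraries, since DESeq2 called 287 genes lower and 238 higher and edgeR 0 and 1, against the 17 and 25 of limma, and limma called 551 and 211 without labelled replicate 1, 174 and 157 or 173 and 148 without unstimulated labelled replicate 1 or 2, and 0 or 1 in all without any 1 WT library or labelled replicate 2. Without labelled replicate 1, 2 members, E2f1 and Cdkn2c, were called lower. Both labelled libraries were lower than both WT libraries for 5 members (23.1% of all genes) and higher for 1 (24.3% of all genes). The median log2 fold change of the 10 was -0.26, against 0.02 for all genes.

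Myc, Ccnd2 and Ccnd3 had overlapping levels in both genotypes after stimulation. Myc had 4677 and 5418 normalized counts in WT and 4709.7 and 4725 in labelled DKO libraries, and the labelled pair lay between the WT pair. Its log2 fold change was -0.09 (95% interval -0.64 to 0.45, limma adjusted p = 0.912). Ccnd2 had 14738 and 15281 normalized counts in WT and 15736 and 13730.1 in labelled DKO libraries, with groups that overlapped (log2 fold change -0.03, 95% interval -0.45 to 0.39). Ccnd3, with 595 and 559.6 in WT and 584 and 662 in labelled DKO libraries, overlapped as well (0.11, 95% interval -0.40 to 0.61). For these 3 genes the intervals still allow a level 0.64 lower to 0.61 higher on the log2 scale.

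The kinases were slightly lower in the stimulated labelled libraries. Cdk6 had 11977 and 11586 normalized counts in WT against 10408 and 7732, a log2 fold change of -0.39 (95% interval -0.81 to 0.03, limma adjusted p = 0.399). Cdk4 had 1539 and 1708 against 1335 and 1130.45, a log2 fold change of -0.40 (95% interval -1.04 to 0.24, limma adjusted p = 0.599). The genotypes did not overlap for either kinase, and labelled replicate 2 was the lowest of the stimulated libraries for both kinases.

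E2f1, Ccne1 and Cdkn2c had lower means than in WT, with labelled libraries that disagreed for E2f1 and Cdkn2c. For E2f1 the normalized counts were 217 and 345 in WT and 187 and 47.3 in labelled DKO libraries. Labelled replicate 2 was below both unstimulated labelled libraries and replicate 1 close to the lower WT library. The log2 fold change of E2f1 was -1.53 (95% interval -2.78 to -0.28, limma adjusted p = 0.254), and it was called without labelled replicate 1 (-2.51, adjusted p = 0.0189) and was -0.55 without labelled replicate 2. Cdkn2c, at 147 and 149.6 in WT against 92.9 and 29.6 normalized counts, followed the same pattern (-1.48, 95% interval -2.69 to -0.27, limma adjusted p = 0.255, and -2.29 with adjusted p = 0.038 without labelled replicate 1). Ccne1 had 291 and 185 normalized counts in WT and 123 and 134 in labelled DKO libraries, which were apart (-0.84, 95% interval -1.73 to 0.04, limma adjusted p = 0.387).

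The other inhibitors differed little. Cdkn1b had 1119.96 and 995 normalized counts in WT libraries and 1172 and 1747 in those labelled DKO, both of them higher (log2 fold change 0.44, 95% interval -0.03 to 0.91, limma adjusted p = 0.403). Cdkn1a had 449.7 and 395 in WT and 505 and 295 in labelled DKO libraries, which enclosed the WT pair (-0.13, 95% interval -1.46 to 1.21, limma adjusted p = 0.958).

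In the lists, E2f7 was the only gene called by limma in stimulated cells (-1.96, limma adjusted p = 0.0446), with 185 and 225 normalized counts in WT and 54.8 and 49 in labelled DKO libraries. This call was lost without any 1 of the 4 WT libraries and without labelled replicate 2. In its list, the RB and E2F family, edgeR called 0 genes and DESeq2 3 lower, and 4 were lower at an unadjusted p under 0.05. Of the E2F target genes limma called 0 of 16 (median -0.75), edgeR 0 and DESeq2 2 lower, while 10 had an unadjusted p under 0.05 and all 16 were below 0, with Rrm2, a subunit of ribonucleotide reductase, at -1.70 (limma adjusted p = 0.123). Of the mitotic markers limma called 0 of 6 (median -1.88), edgeR 0 and DESeq2 5 lower, while all 6 had an unadjusted p under 0.05, with Plk1 at -1.87 (limma adjusted p = 0.0956). Without labelled replicate 1, 5 of the E2F target genes and 4 of the mitotic markers were called lower by limma, and without either unstimulated labelled library 1 and 4. All 12 MYC target genes were below 0 (median -0.43), with 0 called by limma, edgeR or DESeq2 and 1, Ncl (-0.57, limma adjusted p = 0.345), lower at an unadjusted p under 0.05. Without labelled replicate 2 only 9 of the 12 were below 0 (median -0.15), and without labelled replicate 1 the median was -0.68 and 1 gene was called lower. Of the other lists limma called 0 genes, with Ccnb2 at -1.70, Btg1 at 0.70, Bbc3 at 1.81, Cks1b at -0.65 and Cdkn2d at 0.15 the smallest p of each (limma adjusted p = 0.106 to 0.868). Among these lists edgeR also called 0, whereas DESeq2 called 2 cyclins and CDKs lower and 2 antiproliferative genes higher, and 5 and 3 of these lists had an unadjusted p under 0.05, as had 1 p53 target gene and 0 genes of p27 turnover and other CDK inhibitors. Mxd1, which competes with MYC for MAX, had 1049 and 986 normalized counts in WT and 3012 and 4507 in labelled DKO libraries, a log2 fold change of 1.86 that just missed the threshold (limma adjusted p = 0.0627). It was the 1 gene of its list with an unadjusted p under 0.05, and DESeq2 but not edgeR called it.

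Whether the effect of genotype differed with stimulation was tested for each gene by the interaction. No member was called by limma, edgeR or DESeq2, and 0% of all genes were called by limma, 0 by edgeR, and 13 lower and 34 higher by DESeq2. Ccnd3 and Cdk6 passed an unadjusted p under 0.05 with more than 1.5-fold, as did 8.09% of all genes. The genotype effect of Ccnd3 was lower by 1.31 on the log2 scale after stimulation (interaction -1.31, 95% interval -2.03 to -0.60, limma adjusted p = 0.556). For Cdk6 the interaction was 0.84 (95% interval 0.24 to 1.43, limma adjusted p = 0.556). Without unstimulated labelled replicate 2, Ccnd3 (-1.59, adjusted p = 0.0309) and Cdkn1a (2.33, adjusted p = 0.0383) were called. The loss of both calls after stimulation was therefore not shown to be a difference between the states. In the other 8 members the limma adjusted p was 0.692 to 0.997. Of the lists 0 genes were called by limma or edgeR and 1 p53 target gene by DESeq2, with the smallest p for Trp53inp1 (1.36, limma adjusted p = 0.328), and 12 genes, all higher, had an unadjusted p under 0.05.

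More of the members were called on stimulation, in either genotype, than between the genotypes, and so were more of all genes tested. In WT cells 3 of the 10 were called higher (Myc, Ccnd2 and Cdk4) and 1 lower (Cdkn1b), where 10.2% of all genes were called higher and 13.1% lower. In cells labelled DKO 4 were called higher (Myc, Ccnd2, Cdk4 and Cdk6) and 2 lower (Cdkn1b and Ccnd3), where 13% of all genes were called higher and 12% lower. The members' median log2 fold change was 0.46 in WT and 0.87 in labelled DKO libraries. The scaling matters for this contrast. The normalized totals were higher in all unstimulated libraries, and rescaling to equal totals moved the median of all genes from 0.01 to 0.52 in WT and from -0.03 to 0.35 in labelled DKO libraries, and rescaling to equal upper quartiles moved it to -0.12 and -0.14. With equal totals the share of lower among called genes went from 56.0% to 18.6% in WT and from 48.2% to 22.1% in labelled DKO cells, and between the genotypes at rest from 70.8% to 59.4%. Relative to that shift, Myc stood at 2.03 in labelled DKO cells with equal totals, against 1.99 as deposited, and Cdkn1b at -1.05, against -1.09.

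Myc rose 4.57-fold in WT cells, from 1128 and 1077 to 4677 and 5418 normalized counts (log2 fold change 2.19, standard error 0.25, limma adjusted p = 0.000732). Myc rose 3.98-fold in cells labelled DKO, from 1573 and 892 to 4709.7 and 4725 (1.99, standard error 0.25, limma adjusted p = 0.000767). Every stimulated library was above every unstimulated one. The interaction of Myc was -0.20 (95% interval -0.97 to 0.57), and Myc was called in both genotypes under each alternative tried.

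Ccnd2 rose with Myc, 2.04-fold in WT (log2 fold change 1.03, limma adjusted p = 0.00517) and 2.71-fold in labelled DKO cells (1.44, limma adjusted p = 0.00105). Cdk4 rose 2.60-fold in WT (1.38, limma adjusted p = 0.0085) and 3.75-fold in labelled DKO cells (1.91, limma adjusted p = 0.00177). For both genes, all 4 stimulated libraries were above all 4 unstimulated ones. The WT call of Ccnd2 was lost without unstimulated WT replicate 4 or stimulated WT replicate 2, and that of Cdk4 without either of these or stimulated WT replicate 1 (adjusted p of 0.0516 to 0.084). Cdk6 rose 2.52-fold in labelled DKO cells (1.33, limma adjusted p = 0.00139), and was at 0.50 in WT (95% interval 0.07 to 0.92, limma adjusted p = 0.0833). The stimulated WT libraries of Cdk6 were nevertheless above the unstimulated ones. With equal totals Cdk6 was called in WT too (1.02), but relative to the shift of all genes it stayed at 0.50. With equal upper quartiles it was at 0.37 in WT (limma adjusted p = 0.199).

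Ccnd3 was called on stimulation in labelled DKO cells only, and the interaction was not called. It had 413 and 445 normalized counts before and 595 and 559.6 after stimulation in WT libraries, a log2 fold change of 0.43 (95% interval -0.08 to 0.93, limma adjusted p = 0.199). In libraries labelled DKO it fell by 0.88 on the log2 scale, from 1390.4 and 947 to 584 and 662 (limma adjusted p = 0.0189). The stimulated libraries of both genotypes thus lay between the 2 unstimulated groups. With equal totals, Ccnd3 was called higher in WT (0.95, adjusted p = 0.0142) and was not called in labelled DKO cells (-0.49, adjusted p = 0.145), and the latter call was also lost without labelled replicate 1 of either state.

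Ccne1 was at 1.14 in WT and 1.13 in labelled DKO cells, with stimulated libraries above unstimulated ones in each genotype, and missed the threshold narrowly in both (limma adjusted p = 0.0618 and 0.0608). It was called in WT by DESeq2 (adjusted p = 0.0414), and in labelled DKO cells without unstimulated replicate 1 (1.57, adjusted p = 0.0247). E2f1 was at -0.02 in WT (95% interval -1.27 to 1.23) and 0.60 in labelled DKO cells (95% interval -0.65 to 1.85), and its groups overlapped in both genotypes. Without stimulated labelled replicate 2, E2f1 was called higher in labelled DKO cells (1.58, adjusted p = 0.0388).

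Cdkn1b fell on stimulation in both genotypes, 2.47-fold in WT (log2 fold change -1.30, standard error 0.21, limma adjusted p = 0.00307) and 2.13-fold in labelled DKO cells (-1.09, standard error 0.21, limma adjusted p = 0.00563). All stimulated libraries were below all unstimulated ones, and the call held under each alternative tried. Cdkn1a was at -1.11 in WT (limma adjusted p = 0.205), where both stimulated libraries were below both unstimulated ones, and at 0.01 in labelled DKO cells (95% interval -1.32 to 1.35). The direction in labelled DKO cells rested on the unstimulated libraries, since Cdkn1a was called lower without replicate 1 (-1.20, adjusted p = 0.0201) and higher without replicate 2 (1.22, adjusted p = 0.0304). Limma on the WT libraries alone, without the spread of the labelled ones, called Cdkn1a in WT (adjusted p = 0.00118). Cdkn2c was at -0.54 in WT and -0.39 in labelled DKO cells and was not called (limma adjusted p = 0.503 and 0.631).

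**Figure D4:**
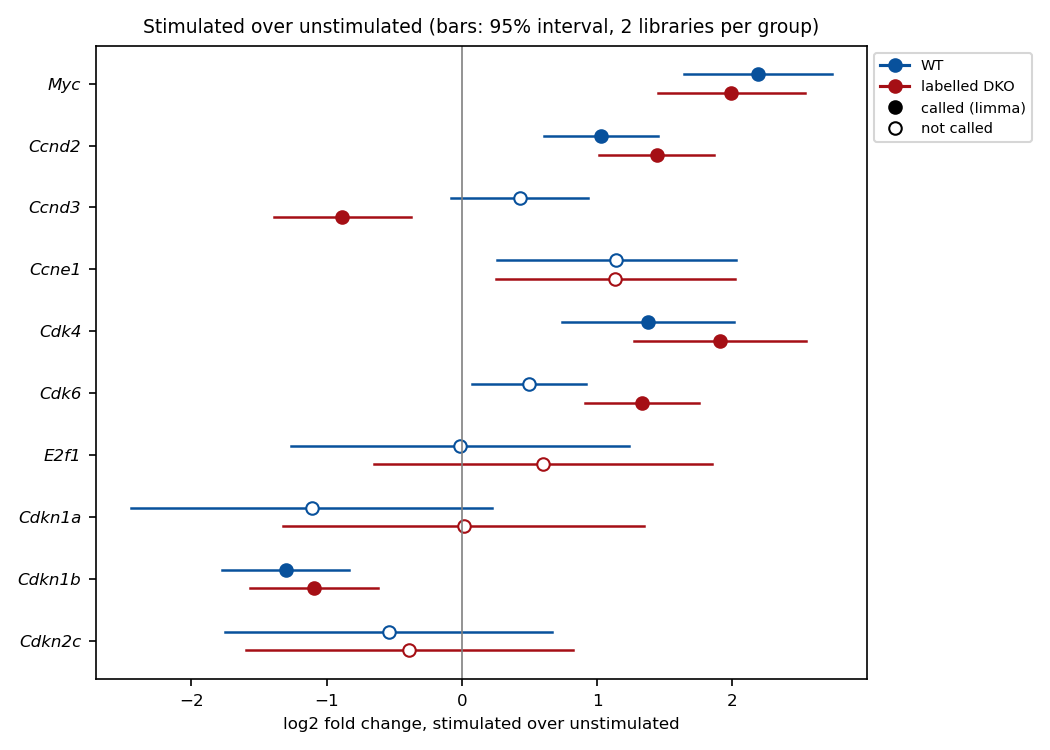
Log2 fold change of the 10 genes in stimulated over unstimulated libraries (x axis), in WT and in labelled DKO cells (bars, 95% interval of limma, 2 libraries per group; filled, called). Myc, Ccnd2 and Cdk4 were called higher and Cdkn1b lower in both genotypes, and Ccnd3 lay above 0 in WT and below 0 in labelled DKO cells.

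Several partners and antagonists moved on stimulation beside the members. Of all genes tested, 10.2% were called higher and 13.1% lower in WT, and 13% and 12% in labelled DKO cells. Of 9 MYC network genes, 4 were called lower in WT and 2 in labelled DKO cells (medians -0.43 and -0.55), and 0 higher. Mxd4, Mnt and Mxi1, which oppose MYC, had log2 fold changes of -2.95, -2.66 and -2.84 in WT cells (limma adjusted p = 0.000242, 0.00186 and 0.00418), and Mxd4 and Mnt fell by 2.56 and 1.53 in labelled DKO cells (limma adjusted p = 0.000373 and 0.0156). With equal totals, 3 and 2 genes of this list were called lower and as many higher. Of 12 MYC target genes, 4 were called higher and 1 lower in WT, and 5 higher and 1 lower in labelled DKO cells. Srm, which makes spermidine, rose by 2.35 in WT and 2.91 in labelled DKO cells (limma adjusted p = 0.000732 and 0.000239), whereas Odc1 fell by 1.81 in WT (limma adjusted p = 0.0018). With equal totals 9 and 7 of the 12 were called higher, as were 4261 and 3792 of the 15419 genes tested.

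Of 10 antiproliferative genes, 9 were called lower in WT and 8 in labelled DKO cells (medians -1.74 and -1.62). In WT the remaining gene, Slfn2, named after its value was seen, was called higher (0.95). With equal totals 7 were lower and 1 higher in each genotype. Of the 15419 genes tested, 975 were then called lower and 4261 higher in WT, and 1077 and 3792 in labelled DKO cells. Without any 1 WT library the WT counts were 7 lower and 0 higher, and in labelled DKO cells 6 to 9 were lower over single libraries left out. Btg1, Tob1 and Btg2 had log2 fold changes of -1.80, -3.06 and -2.01 in WT, and of -1.95, -2.67 and -2.08 in labelled DKO cells (limma adjusted p = 0.000229 to 0.00104). Cdkn2d, which encodes the CDK4 and CDK6 inhibitor p19, fell by 1.94 in WT and 2.24 in labelled DKO cells (limma adjusted p = 0.00182 and 0.000767). E2F target genes had 1 of 16 called higher in WT (Mcm2, 1.06, limma adjusted p = 0.0257) and 8 of 16 in labelled DKO cells (median 1.34), and 7 and 14 with equal totals. Mcm6 rose from 1078 and 1026 to 3524 and 2545 normalized counts in labelled DKO libraries, to below the 4573 and 5324 of stimulated WT libraries. The interaction was called for 0 of the 16 by limma, edgeR and DESeq2, and the smallest p was that of Mcm6 (1.13, limma adjusted p = 0.556). Without stimulated labelled replicate 1 the 8 became 4 and without replicate 2 they became 13, without unstimulated labelled replicate 2 they became 5, and Mcm2 was lost without any 1 of the 4 WT libraries. Other cyclins and CDKs had 3 of 11 called higher in WT (0 to 1 without any 1 WT library) and 6 higher and 1 lower in labelled DKO cells (3 to 7 higher over single libraries left out), among them Cdk7, which activates the CDKs, at 0.91 and 1.22 (limma adjusted p = 0.0166 and 0.00432). In the RB and E2F family, E2f3 was called higher in both genotypes, at 1.125 in WT and 1.88 in labelled DKO cells (limma adjusted p = 0.00115 in the latter). Rbl2, the partner of the repressor complexes of resting cells, was called lower in both, at -1.09 in WT (limma adjusted p = 0.00291) and -0.87 in labelled DKO cells. Of this family, 4 were called higher and 4 lower in WT, and 5 and 2 in labelled DKO cells. This split depended on the scaling, since with equal totals 6 were higher and 0 lower in WT and 8 and 1 in labelled DKO cells, and without any 1 WT library 1 to 2 were higher and 1 to 2 lower in WT. Limma called 0 of the 6 mitotic markers in either genotype, edgeR 0 and DESeq2 0 in WT and 2 higher in labelled DKO cells, where 2 had an unadjusted p under 0.05. Mki67 was at -0.95 in WT and Birc5 at 1.40 in labelled DKO cells (limma adjusted p = 0.256 and 0.0592), and 4 markers were called higher there without unstimulated replicate 1 and 2 without stimulated replicate 2. The p53 target genes had 3 higher and 3 lower in WT and 5 higher and 1 lower in labelled DKO cells, and the genes of p27 turnover had 2 and 1 higher, Cks1b at 1.18 and 2.63 (limma adjusted p = 0.0192 and 0.000583). Both WT calls of p27 turnover were lost without any 1 WT library. Over single libraries left out, the p53 target genes called higher were 1 to 3 in WT (1 without stimulated replicate 2) and 2 to 5 in labelled DKO cells (2 without unstimulated replicate 2 or stimulated replicate 1).

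The genes whose pattern over the 8 libraries was most like that of Myc were Tmem69, Eif2b3 and Mrps10, with root mean square differences of 0.07, 0.12 and 0.13 on the log2 scale after each gene was centred on its mean, where the median of the 9146 genes compared was 1.13. Those most like E2f1 were Ncaph, Brip1 and Cdc6, at 0.33, 0.34 and 0.35 (median 1.15). Ncaph had means of 543 and 585 normalized counts in unstimulated and stimulated WT groups and 123 and 252 in those labelled DKO. The likeness is a description over these 8 libraries.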

How the data were processed

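RNA of sorted Treg cells was sequenced, with 2 libraries in each of 4 groups. The methods of the study name Bowtie, Picard, HTSeq and DESeq2 on NCBIM37, whereas the submitters' processing notes name bcl2fastq 1.8.4, STAR 2.7, DESeq2 and mm10. The kit is stranded per the labels and unstranded in the methods, and neither conflict was settled. The deposited values are a signal: the authors scaled each library's gene counts by its own size factor. Dividing by the smallest step gave whole reads for all values (100%, tolerance 0.1 read). For genes averaging at least 10, log2 values (pseudocount 1) entered 1 limma 3.58.1 model of the 4 groups (R 4.3.3, eBayes with trend, 2-sided, Benjamini-Hochberg per contrast). Nothing in the labels says how separate the replicate pools were, so p-values measure only the spread between these samples. Alternatives were edgeR 4.0.16 (quasi-likelihood), DESeq2 1.42.0, both on the recovered reads, fits on the 4 libraries of a contrast, pseudocounts of 0.1 and 5, other filters and scalings, a replicate block, and each library left out. Code was tested on simulated data. All 10 members are named; of each list, at most 3 called genes with the smallest p are named per contrast, or 1 where none was called. Bysl, Tspan31 and the markers are named as checks, and further repeats of a named gene only to give its other values. Members and lists were chosen with earlier results of these data known. Left-out libraries and scalings for the lists were added after seeing the data. Positions and promoters come from RefSeq GRCm38.p6 by symbol, and exon lengths and overlaps from GENCODE vM1.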

Additional observations from a re-analysis of the deposited data

How the results depend on the processing

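Of members called lower between the genotypes at rest (1), DESeq2 gave 2 on all libraries and 3 on the 4 libraries, limma on those 4 gave 2, and leaving out 1 library gave 0 to 3 lower and 0 to 1 higher. In stimulated cells leaving out 1 library gave 0 to 2 lower, and for the interaction 0 to 1 lower and 0 to 1 higher. In WT cells, stimulation lowered 2 members with DESeq2 or limma on the 4 libraries and 1 to 2 with 1 library left out, and raised 6 with equal totals and 1 to 4 with 1 library left out. In labelled DKO cells it lowered 1 member with equal totals or with limma on the 4 libraries, and 1 to 2 with 1 library left out. These directions changed in genes that were not called: with equal upper quartiles Ccnd2 was 0.037 between stimulated genotypes, the interaction of Ccne1 0.0089 and Cdkn1a -0.10 on stimulation of labelled DKO cells, where edgeR gave -0.37 and DESeq2 -0.41 and -0.42, and with equal totals E2f1 was 0.50 on stimulation of WT cells. With 1 library left out, Myc ranged from -0.30 to 0.51 between resting genotypes. Between stimulated genotypes Myc ranged from -0.20 to 0.012, Ccnd2 from -0.13 to 0.068 and Cdkn1a from -0.51 to 0.26. The interaction ranged from -0.61 to 0.21 for Myc, -0.44 to 0.42 for Ccne1, -0.088 to 2.33 for Cdkn1a, -0.077 to 0.50 for Cdkn1b, -0.66 to 0.96 for Cdkn2c and -0.36 to 1.59 for E2f1. On stimulation E2f1 ranged from -0.44 to 0.40 in WT, and in labelled DKO cells Cdkn1a from -1.20 to 1.22, Cdkn2c from -1.20 to 0.42 and E2f1 from -0.38 to 1.58. The cause was not tested.

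Replicate numbers are shared by 3 groups and do not pair the samples by any label. Deviations of equal numbers correlated at 0.17 between the stimulated genotypes and 0.26 within labelled DKO. With the replicate block, calls in all genes went from 17 lower and 25 higher to 43 and 45 between stimulated genotypes, with 0 members, and from 1855 and 1997 to 2442 and 2412 on stimulation of labelled DKO cells, where 2 members were lower and 5 higher, Ccne1 being added (adjusted p = 0.0404). No paired analysis was possible because resting WT libraries carry other numbers for the remaining contrasts. With 2 libraries a group, each interval is wide, and a member with few reads, such as Ccne1 or E2f1, adds counting error. Fewer reads or a lost call do not show equal levels.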
